A study of Mus musculus with 4 samples.

Results

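The 42 collagen chain genes on the array were compared between macrophages grown from Hem1 KO and WT mouse bone marrow. Members were all genes whose single annotated symbol has the form of a collagen chain, which gave 42 of the 19505 genes measured, each with 1 probe set. By class they were 11 fibrillar chains, 6 basement membrane chains, 8 fibril-associated (FACIT) chains, 6 chains of type VI, 4 transmembrane chains and 7 others. Col7a1 and Col12a1 were not analysed here.

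Hem1, encoded by Nckap1l, is a blood cell subunit of the WAVE complex, which drives actin branching. The groups were Hem1 KO and WT, with 2 arrays each, and the series' text states that the mice were distinct. All cultures were grown from femur marrow for 8 days in RPMI medium with 20% L929 fibroblast-conditioned medium and 10% fetal calf serum. The deleted part of Nckap1l, the strain, the sex and the age are not given in the sources used here, and no other allele or treatment is stated for either group.

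Collagens are secreted or membrane proteins whose chains wind into a helix of repeated glycine-led residues. Fibrillar chains build the cable-like fibrils of bone, skin and tendon, and are made chiefly by fibroblasts and osteoblasts. Basement membrane chains form sheets, FACIT chains sit on fibril surfaces, type VI chains form beaded filaments around cells, and transmembrane chains stay anchored in the plasma membrane. Macrophages are better known for taking up and degrading collagen than for laying down fibrils.

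Fibrillar chains made up every collagen call. Col5a1, Col1a1, Col1a2 and Col3a1 were higher in the Hem1 KO macrophages, by 6.55-fold, 3.92-fold, 3.83-fold and 2.96-fold. Calls rest on limma with a Benjamini-Hochberg adjusted p under 0.05 over all 19505 genes. By that rule 4 of 42 collagen genes were higher and 0 were lower, against 1.48% of all genes higher and 0.133% lower. Before adjustment, 6 of 42 were higher with p under 0.05, against 3.63% of all genes. All 11 fibrillar differences lay above 0, against 10113 of all 19505 genes, with a median log2 difference of 1.22. Without Hem1 KO replicate 1, those of Col27a1 (-0.05), Col11a2 (-0.12) and Col24a1 (-0.01) fell below 0. The other 31 collagen genes had a median of 0.13, a range of -0.67 to 0.76 and 0 calls, with 0 at an unadjusted p under 0.05 by limma. The median over all genes was 0.01. The difference between the classes was not tested, since chains are not replicates.

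The promoter sequences of 3 of the called genes, all higher in Hem1 KO, are shown, with that of Col5a3, a fibrillar gene that was not called, beside them. They come from RefSeq (GRCm38.p6) and run, 5′ to 3′ on the gene's strand, up to the base before the outermost annotated start. The region was chr2:27886175-27886380 (plus strand) for Col5a1, chr6:4505368-4505617 (plus) for Col1a2, chr1:45311288-45311537 (plus) for Col3a1 and chr9:20815118-20815317 (minus) for Col5a3. Capitals mark the CCAAT box, the GC box (GGGCGG) and the TATA box (TATAAA) on either strand.
Col5a1: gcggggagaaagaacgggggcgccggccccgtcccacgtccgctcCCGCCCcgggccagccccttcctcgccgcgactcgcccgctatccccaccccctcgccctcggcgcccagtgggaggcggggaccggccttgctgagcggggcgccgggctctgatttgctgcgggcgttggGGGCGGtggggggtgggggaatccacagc
Col1a2: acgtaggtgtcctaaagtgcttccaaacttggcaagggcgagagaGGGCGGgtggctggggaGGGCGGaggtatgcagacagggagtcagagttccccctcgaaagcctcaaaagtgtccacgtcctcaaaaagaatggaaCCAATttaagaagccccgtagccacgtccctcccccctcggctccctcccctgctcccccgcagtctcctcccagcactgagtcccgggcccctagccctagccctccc
Col3a1: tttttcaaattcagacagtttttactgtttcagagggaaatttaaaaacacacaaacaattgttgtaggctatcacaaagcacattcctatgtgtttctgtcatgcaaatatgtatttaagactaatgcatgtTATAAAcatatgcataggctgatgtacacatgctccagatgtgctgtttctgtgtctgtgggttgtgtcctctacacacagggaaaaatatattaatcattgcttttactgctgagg
Col5a3: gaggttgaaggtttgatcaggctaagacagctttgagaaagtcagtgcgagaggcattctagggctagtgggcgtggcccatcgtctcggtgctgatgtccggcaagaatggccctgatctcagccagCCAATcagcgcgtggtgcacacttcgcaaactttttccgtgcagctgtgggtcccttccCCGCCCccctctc

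The windows printed are 206 bases long for Col5a1, 250 for Col1a2 and Col3a1 and 200 for Col5a3, so their motif counts are not compared. Col1a2 held 1 CCAAT and 2 GGGCGG, Col5a1 held 2 GGGCGG, Col3a1 held 1 TATAAA, and Col5a3 held 1 CCAAT and 1 GGGCGG. RefSeq windows were at hand for 34 of the 42 genes, and Col1a1 and Col5a2 were among those without one. For the shares, the 250 bases before each start were read on both strands in full. CCAAT lay in 32.4% of 37 collagen windows and in 33.8% of all 32851 windows. GGGCGG lay in 56.8% and 32.7%, and TATAAA in 13.5% and 12.4%. The motifs do not overlap each other, and a match is a description of letters and not of a bound site.

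Most collagen probe sets gave signal, though many were dim. Background was taken, array by array, as the 95th percentile of 1448 genes of smell, pheromone and taste receptors, which macrophages should not use. It was 6.04 and 5.38 on the Hem1 KO arrays and 5.88 and 5.51 on the WT arrays (replicates 1 and 2). Of the 42 genes, 32 lay above it on all 4 arrays, 6 on some and 4 on none. The 4 were Col24a1, Col4a5, Col6a5 and Col6a6. The counts per array were 35 and 38 in Hem1 KO and 34 and 34 in WT.

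**Figure D1:**
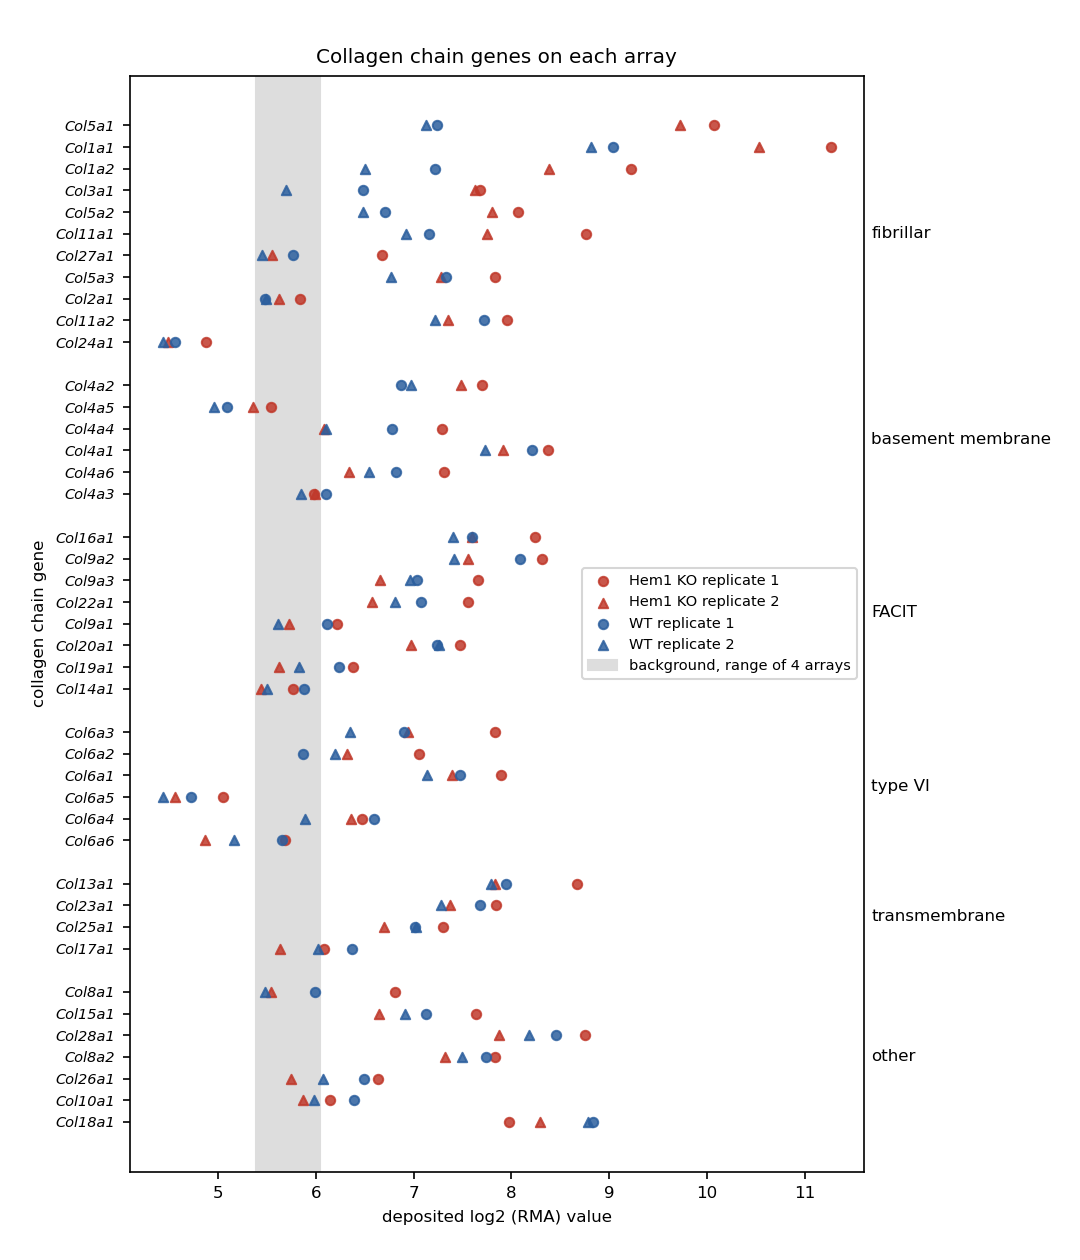
Deposited log2 value of each collagen chain gene on each array (horizontal axis), with Hem1 KO in red and WT in blue, circles for replicate 1 and triangles for replicate 2, and the grey band the range of the background over the 4 arrays (5.38 to 6.04). The red points of Col5a1, Col1a1, Col1a2, Col3a1, Col5a2 and Col11a1 lie to the right of both blue points.

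Replicate 1 read higher than replicate 2 in both genotypes. Hem1 KO replicate 1 exceeded Hem1 KO replicate 2 in 40 of 42 collagen genes and in 81.9% of all genes, and WT replicate 1 exceeded WT replicate 2 in 37 of 42 and in 84.8%. The medians over all named genes were 6.95 and 6.49 on the Hem1 KO arrays and 6.82 and 6.42 on the WT arrays. Hem1 KO replicate 1 also had a narrower spread over genes than the other arrays (SD 2.00, against 2.15 on each). Nckap1l read 10.04 and 9.62 on the Hem1 KO arrays, against 11.37 and 11.11 on the WT arrays, a log2 difference of -1.41 (SE 0.32, adjusted p = 0.0467 by limma). Where its probes lie relative to the deleted part is unknown, so this value is no check of the labels. Leaving out an array other than Hem1 KO replicate 1 ended that call, with adjusted p-values of 0.0874 to 0.381.

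Type V collagen, which starts fibrils and sets their width, held the gene with the smallest p. Col5a1, its main chain, read 10.07 and 9.72 on the Hem1 KO arrays, against 7.24 and 7.13 on the WT arrays. Both Hem1 KO values were thus far above both WT values, with replicates close together. The log2 difference was 2.71 (SE 0.32, 95% confidence interval 2.03 to 3.39, adjusted p = 0.000923 by limma).

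Its partner chains differed by less. Col5a2 read 8.07 and 7.80 in Hem1 KO, against 6.71 and 6.48 in WT, without overlap. Its log2 difference of 1.34 (SE 0.32) narrowly missed the threshold, with an adjusted p of 0.0572 by limma. Col5a3, a chain of limited tissue range, read 7.84 and 7.28 in Hem1 KO, against 7.33 and 6.77 in WT, so that the groups overlapped (0.51, 95% confidence interval -0.23 to 1.25).

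The gap between the type V chains could also be read within each array. The log2 value of Col5a1 minus that of Col5a2 was 2.01 and 1.92 on the Hem1 KO arrays and 0.54 and 0.65 on the WT arrays. Col5a1 minus Col5a3 was 2.24 and 2.44 on the Hem1 KO arrays and -0.09 and 0.36 on the WT arrays. Such a ratio compares the signals of probe sets and gives no relative amount of RNA. The exact two-sided permutation p was 0.333 for each, the smallest that 2 arrays against 2 can give.

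Type I collagen, the main fibril protein of bone and skin, is built from the products of Col1a1 and Col1a2. Col1a1 read 11.26 and 10.53 on the Hem1 KO arrays, against 9.04 and 8.82 on the WT arrays (log2 difference 1.97, SE 0.34, adjusted p = 0.0077 by limma). Col1a2 read 9.22 and 8.38 in Hem1 KO, against 7.22 and 6.50 in WT (1.94, SE 0.38, adjusted p = 0.016). Neither gene overlapped between the groups, and both were well above background in WT.

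The Col1a1 and Col1a2 differences were of like size, with Col1a1 minus Col1a2 at 2.05 and 2.15 on the Hem1 KO arrays and at 1.81 and 2.31 on the WT arrays. The change of that ratio was 0.04, inside the gap between the WT arrays.

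Col3a1 encodes the chain of type III collagen, which accompanies type I in soft tissue. It read 7.68 and 7.63 on the Hem1 KO arrays, against 6.48 and 5.69 on the WT arrays (1.57, SE 0.34, adjusted p = 0.0369 by limma). The Hem1 KO arrays were alike, and WT replicate 2 was the low one. Without WT replicate 2 the calls of Col3a1 (1.17, adjusted p = 0.674) and Col1a2 (1.58, adjusted p = 0.108) ended, and 2 collagen genes, Col1a1 and Col5a1, were then called. The same calls ended when dim genes were left out or all probe sets and controls were tested, with adjusted p-values of 0.0543 to 0.101.

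Col11a1, a chain of type XI collagen best known from cartilage, read 8.76 and 7.75 on the Hem1 KO arrays, against 7.16 and 6.92 on the WT arrays. The groups did not overlap, but Hem1 KO replicate 1 was much the higher array of its group (1.22, SE 0.37, adjusted p = 0.226 by limma). Dropping Hem1 KO replicate 2 brought a call of Col11a1 at 1.72, while dropping Hem1 KO replicate 1 left it at 0.71, which also brought the fibrillar median to 0.71. Col11a1 minus Col11a2, its partner chain, was 0.81 and 0.40 on the Hem1 KO arrays and -0.56 and -0.30 on the WT arrays (exact two-sided permutation p = 0.333).

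The other fibrillar chains stayed low or overlapped. Col11a2 read 7.96 and 7.35 in Hem1 KO, against 7.72 and 7.22 in WT (0.18). Col27a1 was above background on both Hem1 KO arrays and on neither WT array, but its values overlapped (adjusted p = 1 by limma). Its log2 difference was 0.51 (95% confidence interval -0.32 to 1.34), and -0.05 without Hem1 KO replicate 1. Col2a1, the main collagen of cartilage, was above background on 1 of the 4 arrays, and Col24a1 on none.

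**Figure D2:**
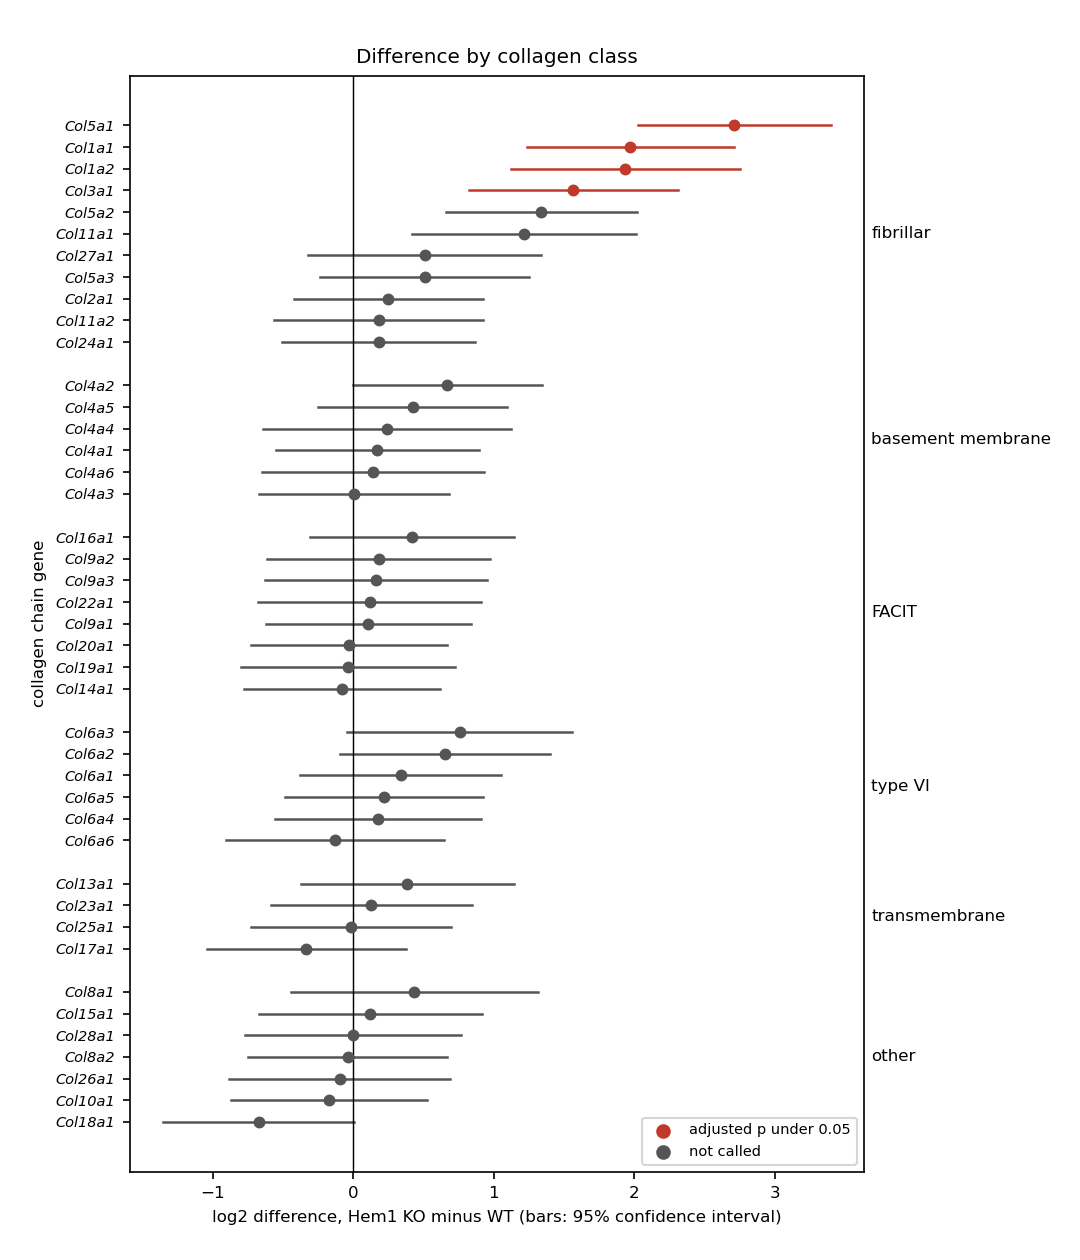
Log2 difference, Hem1 KO minus WT, of each collagen chain gene by class, with 95% confidence intervals from limma as bars and genes at an adjusted p under 0.05 in red. The 4 red genes are all fibrillar, and the intervals of Col5a2 and Col11a1 also lie above 0.

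Among basement membrane chains 0 of 6 were called, with a median log2 difference of 0.21. Col4a2, which pairs with Col4a1 in nearly all basement membranes, read 7.70 and 7.49 on the Hem1 KO arrays, against 6.87 and 6.97 on the WT arrays. That was a shift without overlap but short of the test (0.67, SE 0.31, 95% confidence interval -0.0042 to 1.34, adjusted p = 0.977 by limma). Col4a1 read 8.37 and 7.91 in Hem1 KO, against 8.21 and 7.74 in WT (0.17). Col4a3, Col4a4, Col4a5 and Col4a6, known from kidney and other specialised membranes, ran from 0.00 to 0.42.

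Among type VI chains 0 of 6 were called, with a median of 0.28. Col6a3 read 7.84 and 6.94 in Hem1 KO, against 6.91 and 6.35 in WT (0.76, 95% confidence interval -0.04 to 1.56). Col6a2 read 7.06 and 6.32 in Hem1 KO, against 5.87 and 6.19 in WT (0.66, 95% confidence interval -0.09 to 1.40). For both the lower Hem1 KO array lay just above the higher WT array. Col6a1, the partner of both, read 7.89 and 7.39 in Hem1 KO, against 7.47 and 7.14 in WT (0.34).

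The FACIT chains held no call. Of 8, 0 were called and 5 lay above 0, with a median of 0.11 and a range of -0.08 to 0.42. Col16a1 had the largest difference of them, at 8.25 and 7.60 in Hem1 KO, against 7.60 and 7.41 in WT. The cartilage chains Col9a1, Col9a2 and Col9a3 lay at 0.11, 0.18 and 0.16.

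Of the 4 transmembrane chains 0 were called, with a median of 0.05. They ran from Col17a1, a part of the anchors of skin epithelium, at -0.33, to Col13a1 at 0.39. Col13a1 read 8.67 and 7.83 in Hem1 KO, against 7.94 and 7.79 in WT, so that 1 array made most of its difference.

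Among the 7 remaining chains Col18a1 was the single collagen gene with both Hem1 KO values under both WT values. This chain of vessel and basement membrane zones, the source of endostatin, read 7.98 and 8.29 on the Hem1 KO arrays, against 8.84 and 8.78 on the WT arrays. The log2 difference was -0.67 (SE 0.31, 95% confidence interval -1.35 to 0.01, adjusted p = 0.979 by limma). The others ran from Col10a1 at -0.17 to Col8a1 at 0.43, and the class median was -0.04.

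Both Hem1 KO arrays lay above both WT arrays for 12 of 42 collagen genes, against 12.5% of all genes, for 7 of 11 fibrillar genes and for 5 of the other 31. Both lay below both WT arrays for 1 of 42, against 13.3% of all genes. The 12 include Col16a1, nearly a tie (7.5959 on its lower Hem1 KO array, 7.5957 on its higher WT array). They also include Col4a5, above background on no array, and the fibrillar Col2a1, above it on 1. For 23 of the 38 collagen genes not called, the 95% confidence interval lay within 2-fold either way. In 11 the interval included 0 and reached a 2-fold increase, and in 2 it included 0 and reached a 2-fold decrease, so that changes of that size could not be told from none in these with 2 arrays per genotype. The intervals of the other 2, Col5a2 and Col11a1, lay above 0 and also reached a 2-fold increase.

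Of 5 pairs of chains whose genes are neighbours in RefSeq order, the ratio between the genes overlapped between the genotypes in 4. Col3a1 and Col5a2, next to each other on chromosome 1, lay at 1.57 and 1.34, and Col6a2 and Col6a1 on chromosome 10 at 0.66 and 0.34 (exact two-sided permutation p = 0.667 for each). The pairs Col4a3 with Col4a4 (0.00 and 0.24) and Col4a5 with Col4a6 (0.42 and 0.14) overlapped too (exact p = 1 for each). Col4a2 and Col4a1 on chromosome 8, at 0.67 and 0.17, were the pair without overlap (exact p = 0.333). The array-wise ratio separated the genotypes in 5 of 10 pairs of related or neighbouring chains, each at the smallest exact permutation p of 0.333 (two-sided). That p is also the share of splits of 4 arrays into 2 and 2 that separate any set of values. Among all single genes, 12.5% had both Hem1 KO arrays above both WT arrays and 13.3% below. Col5a1, Col5a2 and Col6a1 each enter more than 1 pair, and the count of pairs was not tested.

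**Figure D3:**
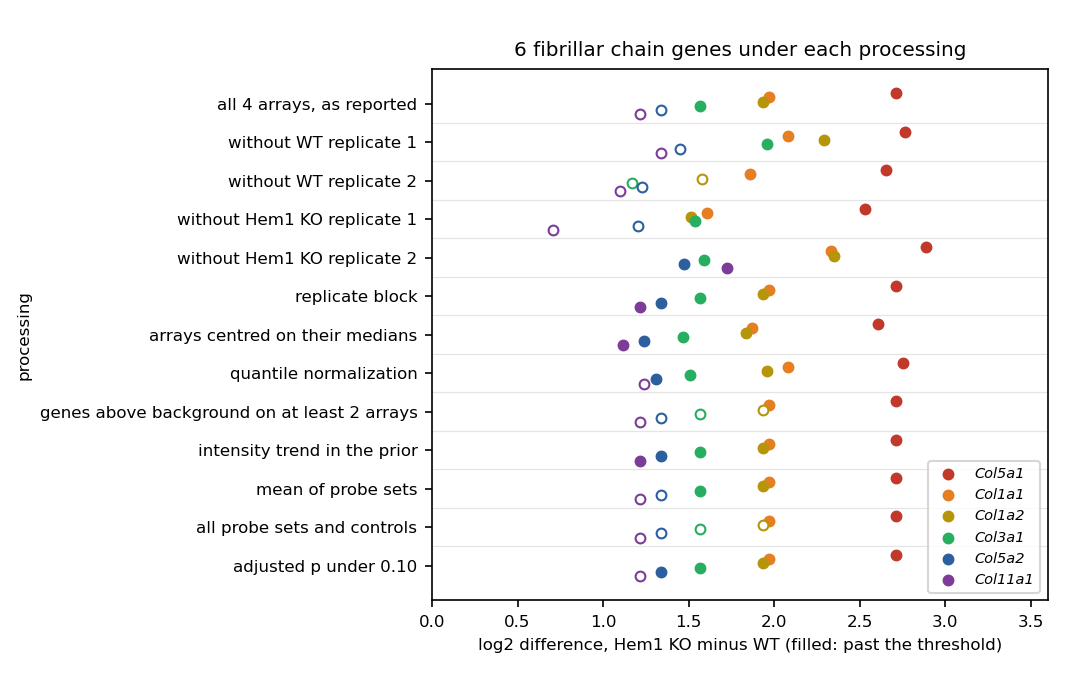
Log2 difference, Hem1 KO minus WT, of 6 fibrillar chain genes (colours) under each processing (rows), filled where the gene passed the threshold. Col5a1, which ranged from 2.53 to 2.89, and Col1a1, which ranged from 1.61 to 2.34, are filled throughout.

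Several enzymes that build collagen were higher alongside the fibrillar chains. Of 27 measured collagen biosynthesis genes, 9 were higher and 0 lower, against 1.48% and 0.133% of all genes, with a median of 0.66. Lox and Loxl1, which cross-link secreted fibrils, were 6.67-fold and 5.59-fold higher (log2 differences 2.74, SE 0.40, and 2.48, SE 0.34). Plod2, which hydroxylates lysines of the fibril ends, was 5.87-fold higher, and P3h4, a partner of lysine hydroxylation, 5.04-fold. The prolyl hydroxylase subunit P4ha3 was 4.66-fold higher and the collagen chaperone Serpinh1 4.24-fold. Their adjusted p-values by limma ran from 0.00218 for Loxl1 to 0.00474 for Serpinh1.

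Serpinh1 read 9.17 and 8.69 on the Hem1 KO arrays, against 7.09 and 6.60 on the WT arrays. Lox read 10.90 and 10.00 in Hem1 KO, against 8.21 and 7.21 in WT. Both sets of arrays stood apart by more than the gap between replicates. P4hb and Ppib, folding helpers of the endoplasmic reticulum used by many proteins, lay at 0.22 and 0.15 (not called), and were named after their values were seen.

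Of 10 measured collagen receptors, 3 were higher and 0 lower, against 1.48% and 0.133% of all genes. Their median of 0.35 was -0.17 without Hem1 KO replicate 1 and 0.92 without Hem1 KO replicate 2. The integrin chain Itga11, a receptor for fibrillar collagen on mesenchymal cells, read 9.35 and 9.34 on the Hem1 KO arrays, against 6.33 and 6.28 on the WT arrays (8.23-fold, 3.04, SE 0.31, adjusted p = 0.000534 by limma). Replicates of each genotype agreed closely. The collagen-binding kinase Ddr2 was 5.77-fold higher and the uptake receptor Mrc2 3.89-fold. The call of Mrc2 ended without WT replicate 2 (1.65, adjusted p = 0.0722). Lair1, an inhibitory collagen receptor of leukocytes, read 8.32 and 9.19 in Hem1 KO, against 9.36 and 9.91 in WT, without overlap (-0.88, adjusted p = 0.737), and was named after its values were seen. It was called lower without Hem1 KO replicate 2 (-1.32, adjusted p = 0.0391), under the replicate block (0.0307) and with an intensity trend (0.0375).

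Collagen-degrading enzymes went both ways. Of 7 measured, 2 were higher and 2 lower, against 1.48% and 0.133% of all genes, with a median of 0.65. The gelatinase Mmp2 (5.97-fold) and the membrane collagenase Mmp14 (3.21-fold) were higher, and the neutrophil collagenase Mmp8 (4.62-fold) and the gelatinase Mmp9 (3.37-fold) were lower. Without WT replicate 2 the calls of Mmp14 (1.23, adjusted p = 0.54) and Mmp9 (-1.45, adjusted p = 0.205) ended. That of Mmp14 also ended with dim genes left out or all probe sets tested, and that of Mmp9 after quantile normalization or with dim genes left out. Without Hem1 KO replicate 2 the number higher was 4, with Mmp13 and Ctsk added, and the median ran from -0.05 to 1.35 over left-out arrays.

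Of 21 measured regulators of collagen genes, 3 were higher and 0 lower, against 1.48% and 0.133% of all genes, with a median of 0.34. Under the replicate block 6 were higher, with Ccn2, Sp7 and Twist1 added, when 620 of all genes were higher. The 3 were the growth factors Tgfb3 (4.96-fold) and Tgfb2 (4.77-fold) and Creb3l1 (4.87-fold), a stress-sensing factor that activates type I collagen genes in osteoblasts. Tgfb3 read 11.21 and 11.03 on the Hem1 KO arrays, against 8.89 and 8.74 on the WT arrays (2.31, SE 0.31, adjusted p = 0.00211 by limma). Their relative Tgfb1 read 11.02 and 11.09 in Hem1 KO, against 11.46 and 11.32 in WT (-0.34, not called), and was named after its values were seen.

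Proteins with a collagen-like stretch that are no collagen chains held no call. Limma called 0 of 21, with 1 higher at an unadjusted p under 0.05, and their median was 0.01. The scavenger receptor relative Scara3 read 7.99 and 7.60 in Hem1 KO, against 6.70 and 6.73 in WT (1.08, adjusted p = 0.193). Scara3 was called under the replicate block (adjusted p = 0.00763). The macrophage scavenger receptor Msr1 read 8.83 and 9.68 in Hem1 KO, against 9.65 and 9.77 in WT (-0.46, adjusted p = 1), with overlap.

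**Figure D4:**
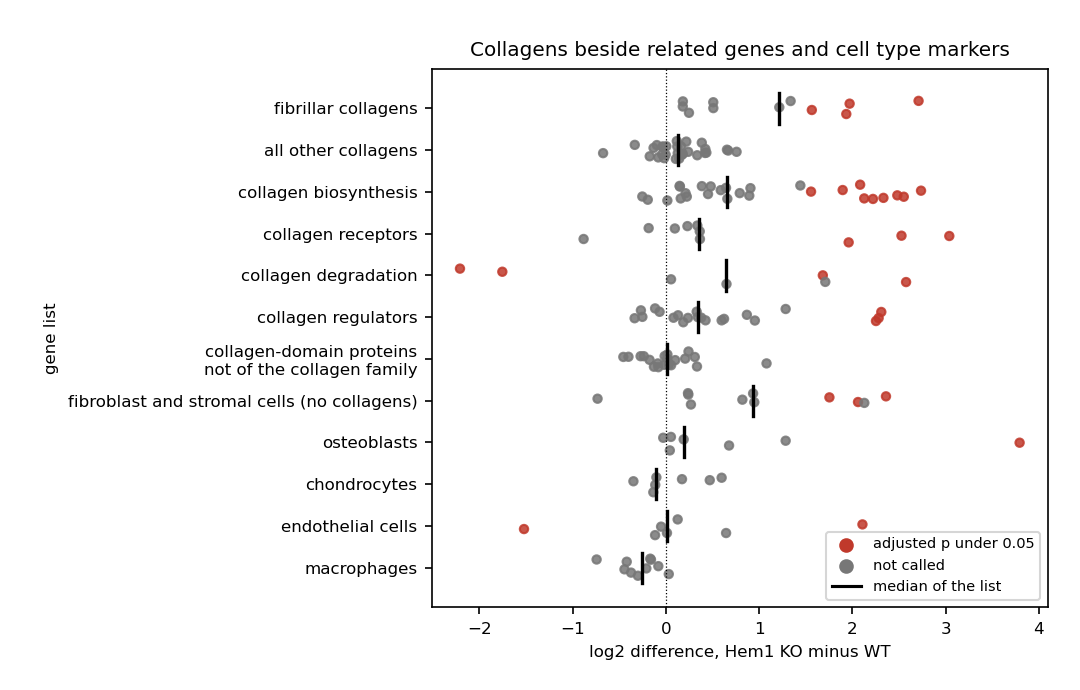
Log2 difference, Hem1 KO minus WT, of each gene (points, red at an adjusted p under 0.05) in the fibrillar collagens, all other collagens and lists of related genes and cell type markers, with the list median as a black bar. The medians were 1.22 for fibrillar collagens, 0.13 for the other collagens, 0.66 for collagen biosynthesis, 0.94 for stromal markers and -0.25 for macrophage markers.

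Some markers of stromal cells were also higher. Of 11 measured fibroblast and stromal markers other than collagens, 3 were higher and 0 lower, against 1.48% and 0.133% of all genes. Before adjustment 7 were higher with p under 0.05 by limma, against 3.63% of all genes. Both Hem1 KO arrays lay above both WT arrays for 7, against 12.5% of all genes. The list median was 0.94. With an intensity trend in the prior 6 were higher and 1 lower, and under the replicate block 7 and 0. Calls rose over all genes too, to 409 higher and 205 lower with the trend and to 620 and 199 under the block. Pdgfrb was 5.14-fold, Cxcl12 4.17-fold and Acta2 3.37-fold higher. Dcn (log2 difference 2.13, adjusted p = 0.0673 by limma), Fn1 (0.95), Postn (0.94) and Fap (0.82) were not called. Fap lay above background on 1 array. These genes were named after their values were seen. The call of Acta2 ended without WT replicate 2 (adjusted p = 0.165). S100a4, which macrophages also express, read 10.18 and 11.72 in Hem1 KO, against 11.59 and 11.76 in WT (-0.73, adjusted p = 1). It was called lower with the trend and without Hem1 KO replicate 2 (adjusted p = 0.00877), and was named after its values were seen. The mean log2 level over the list was 8.65 and 8.35 on the Hem1 KO arrays and 7.61 and 7.38 on the WT arrays. Thy1, Lum and Lepr lay at or below background on all 4 arrays. The part of stromal cells in the collagen differences was not tested, and in a bulk culture more cells of a type and more RNA per cell cannot be told apart.

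Markers of other collagen-making cells were mixed. Of 7 osteoblast markers 1 was higher and 0 lower, against 1.48% and 0.133% of all genes, with a median of 0.19. The higher one was bone sialoprotein, Ibsp (at least 8.61-fold). Bglap (-0.03) and Bglap2 (0.04) lay above background on all arrays without a call, and were named after their values were seen. Dmp1 and Phex lay at or below background. Sp7, an osteoblast transcription factor that is also on the regulator list, differed by at least 1.34-fold without a call (adjusted p = 0.169 by limma). It was called higher without Hem1 KO replicate 2, under the block, after centring and after quantile normalization, and was named after its values were seen. The median was 0.75 without Hem1 KO replicate 2 and 0.68 with dim genes left out. The list mean was 7.05 and 6.13 on the Hem1 KO arrays and 5.93 and 5.54 on the WT arrays. Limma called 0 of 7 chondrocyte markers, with 0 at an unadjusted p under 0.05 (median -0.10, means 6.16 and 5.33 in Hem1 KO and 5.83 and 5.51 in WT). Of these, 3 lay above 0 and 4 below, with Sox9 at 0.60, Comp at 0.47, Acan at -0.35 and Cnmd at -0.10. Acan and Cnmd were named after their values were seen. Matn1, Matn3 and Hapln1 lay at or below background on all arrays. Of 7 endothelial markers 1 was higher and 1 lower, against 1.48% and 0.133% of all genes. Cdh5 was at least 1.86-fold higher and Vwf 2.87-fold lower (list median 0.01, means 6.30 and 5.88 in Hem1 KO and 6.26 and 5.59 in WT). The call of Cdh5 ended after quantile normalization (2.04, adjusted p = 0.054), and that of Vwf ended without WT replicate 1 (adjusted p = 0.113) or WT replicate 2 (adjusted p = 0.141) and with all probe sets tested (0.0637). Without Hem1 KO replicate 2, Pecam1 was also called higher. The endothelial marker Tek lay at or below background.

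Macrophage markers were bright throughout. None of 10 passed limma's test (0 called, and 1 lower at unadjusted p under 0.05), and all 10 lay above background on all arrays. Of these markers 9 differed downward, and 6 had both Hem1 KO arrays below both WT arrays, against 13.3% of all genes. Their mean level was 11.56 and 11.48 on the Hem1 KO arrays and 11.96 and 11.65 on the WT arrays (median difference -0.25), with Fcgr1 at -0.74 (called lower with an intensity trend, adjusted p = 0.000749) and Adgre1 at -0.44. That median was -0.46 without WT replicate 2. Of 5 adipocyte markers limma called 0, and 1 was lower at unadjusted p under 0.05 (median 0.03, Fabp4 at -1.34 and Lep at 0.44). Lep and Adipoq lay at or below background on all arrays. Fabp4 was called lower without WT replicate 1 (adjusted p = 0.0162), without Hem1 KO replicate 1 (0.00066), under the block (0.0313) and with the trend (2.43e-08). The adipocyte median was -0.36 without Hem1 KO replicate 1 and 0.44 without Hem1 KO replicate 2. Limma called 0 of 7 neutrophil markers, with 0 at an unadjusted p under 0.05 (median -0.01, Camp at 0.54 and S100a8 at -0.44). S100a8, Mpo, Ngp and Ltf lay at or below background on all arrays, and Camp lay above it on the Hem1 KO arrays only.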

How the data were processed

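Macrophage RNA of 2 Hem1 KO and 2 WT mice was measured on 1 Affymetrix array each. The deposited values are log2 values per probe set, and RMA is named, without version or settings, per the submitters' processing notes; the log2 scale was read from the values, 2.70 to 14.0. Array medians differ, so a quantile step across arrays is not visible. The array design's genome build is not known here, and precision is limited by the number of arrays.

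Of 29129 rows, 19572 name 1 gene in the platform annotation, 0 several and 9557 none. The brightest probe set per gene was kept (55 genes had more than 1), leaving 19505 genes. limma 3.58.1 in R 4.3.3 (lmFit, eBayes, 11.2 prior degrees of freedom) was fitted to genotype alone, two-sided, and tested on simulated data. "At least" folds set the brighter group's mean against the higher of background and the gene's own value on each array of the other group. They allow for background and not for the spread between arrays, so a confidence interval can reach below them. Collagen genes called or at an unadjusted p under 0.05 are given by array, and of each list up to 6 called members or else the 2 of smallest p; further genes were added for their role in the report's comparisons. The members, classes, lists, background level, pairs and motifs were chosen with earlier results of these data known. Alternatives left out each array, blocked on replicate number, or changed centring, normalization, filter, prior, probe sets, features tested, threshold or background percentile.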

Additional observations from a re-analysis of the deposited data

How the results depend on the processing

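Of 498 checks of single collagen genes under another setting, 482 kept their direction and side of the threshold or stayed uncalled, 6 ended a call, 10 added one and 0 reversed one. A gene that stayed uncalled counted as kept even where its sign changed. The looser threshold reused the reported fit, and averaging probe sets could not move the difference of a collagen gene, as each has 1. Of the 4 called genes, Col1a2 and Col3a1 lost their calls in some settings, and Col5a2 and Col11a1 gained one. Collagen genes called higher, all fibrillar, numbered 2 to 6 when an array was left out, against 4 with all arrays. They numbered 2 (Col1a1 and Col5a1) with genes above background on at least 2 arrays and 2 with all probe sets and controls, which ended Col1a2 (adjusted p = 0.0856 and 0.0543) and Col3a1 (0.098 and 0.101). The fit with the replicate number as a block called 6 collagen genes, adding Col5a2 and Col11a1, as did centring and an intensity trend; replicate 1 minus 2 correlated at r = 0.241 between genotypes across genes, and the labels state no pairing. The fibrillar median, 1.22, ran from 0.71 to 1.47 over left-out arrays, that of type VI from 0.10 to 0.53, and that of all collagens from -0.08 to 0.54, while the median of all genes ran from -0.18 to 0.21. Centring moved the median of all genes to -0.09 (0.01 as deposited). Stromal markers called higher, 3 as reported, numbered 6 with the trend and 7 under the block; 1 was called lower with the trend and 1 without Hem1 KO replicate 2, against 0 as reported. Their median was 1.75 with dim genes left out. Over all genes, calls higher ran from 185 to 545 and lower from 26 to 101 over left-out arrays, against 288 and 26; they were 620 and 199 under the replicate block, and 174 and 8 with the dim genes left out. Higher calls were 400 after centring and 409 with the trend, and lower calls were 70 and 205. With the 90th or 99th percentile as background, 38 to 39 or 25 to 27 collagen genes lay above it per array. Fits that leave 1 array in a group assume that it varies like the other group. The cause of these changes was not tested.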
